A study of Triticum aestivum with 32 samples.

Results

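Rubisco activase is represented here by 5 gene models on the group 4 chromosomes of bread wheat, followed through 32 flag leaf libraries. The 5 are TraesCS4A02G177500 and TraesCS4A02G177600 on chromosome 4A, TraesCS4B02G140200 and TraesCS4B02G140300 on chromosome 4B, and TraesCS4D02G134900 on chromosome 4D. They were taken by identifier from a list given for this work, which calls them neighbouring Rubisco activase loci, out of 269428 gene models in all. They account for 9 of 298774 transcripts. No gene names stand beside the identifiers in the files, so the name Rubisco activase comes from that list and could not be checked. The list was drawn up with earlier results of these data known, among them the rise of TraesCS4D02G134900 under the triple stress against Control. Values that involve the triple stress or Control are therefore given as a description, with no test.

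Rubisco activase is a chloroplast protein of the AAA+ family that uses ATP to pull inhibitory sugar phosphates out of the active sites of Rubisco, the enzyme that fixes carbon dioxide. It keeps Rubisco in its active state in the light, and its abundance in leaves is high. In wheat and many other plants the protein is known to lose activity at moderately high temperature, and forms that accumulate in warm leaves have been described. Bread wheat carries 3 related chromosome sets, A, B and D, so that most genes exist as closely similar copies on each.

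The plants were of the cultivar Stettler, a red spring wheat, grown in pots in a greenhouse, with 8 pots for each of 8 treatments. Treatments began 5 weeks after sowing, at Feekes stage 8, when the spike starts to form. RNA came from the flag leaf, the uppermost leaf, during grain filling, with 4 libraries per treatment that the series text calls independent biological replicates. The tissue label could not be checked against marker genes, again because no gene names come with the identifiers.

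In the Salt and Heat and Drought group all 3 stresses were applied together. The Salt and Heat group had both named stresses at full watering, and the Heat and Drought group had both without salt. The Heat group had heat alone. These 4 heated groups stood in a separate greenhouse with a daytime setting of 30 °C for part of the day and 18 °C at night. The Salt and Drought, Salt, Drought and Control groups stood in a greenhouse at 24 °C by day and 18 °C by night. Heat and greenhouse therefore cannot be told apart in these data. Drought meant watering to 40% of field capacity in place of 100%. Salt meant watering with NaCl that was stepped up through 20 and 40 mM to a lasting 80 mM. Control plants had full watering and neither heat nor salt.

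Levels are in TPM (transcripts per 1000000), which are scaled by transcript length, so that levels of different genes can be compared. Bulk leaf RNA was measured, so fewer expressing cells and less RNA per cell cannot be told apart. TPM keep no record of read numbers, and the depth behind each value is unknown. The authors' software divided reads that match several transcripts among them. The split between near-identical copies on 4A, 4B and 4D is therefore an estimate, and the value of a single copy is uncertain to that extent. Heat replicates 1 and 3 stood apart from most libraries, with 36.06 and 32.24% of their TPM in the 100 most abundant gene models where the median library had 23.2%. The same holds for Control replicate 3 and Drought replicates 3 and 4, with 33.53, 33.28 and 31.43%. Salt replicate 3 had 21.56% of its TPM in low confidence gene models, where the other libraries had 7.81 to 9.90%. Results that rest on the Heat group are given with and without Heat replicates 1 and 3. Calls are also given without all 6 of these libraries, a setting chosen after the data were seen.

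The 5 gene models fell into sets of very different level. TraesCS4A02G177500 and TraesCS4B02G140300 had means over the 32 libraries of 5154.97 and 4068.51 TPM and ranked 3 and 9 among all gene models. TraesCS4D02G134900, TraesCS4B02G140200 and TraesCS4A02G177600 had means of 161.56, 92.39 and 36.66 TPM, at ranks 657, 1233 and 3676. The abundant pair was high in every library, while the 3 low gene models were low in every unheated library and high in most heated ones, as the plot of levels by treatment shows.

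**Figure D1:**
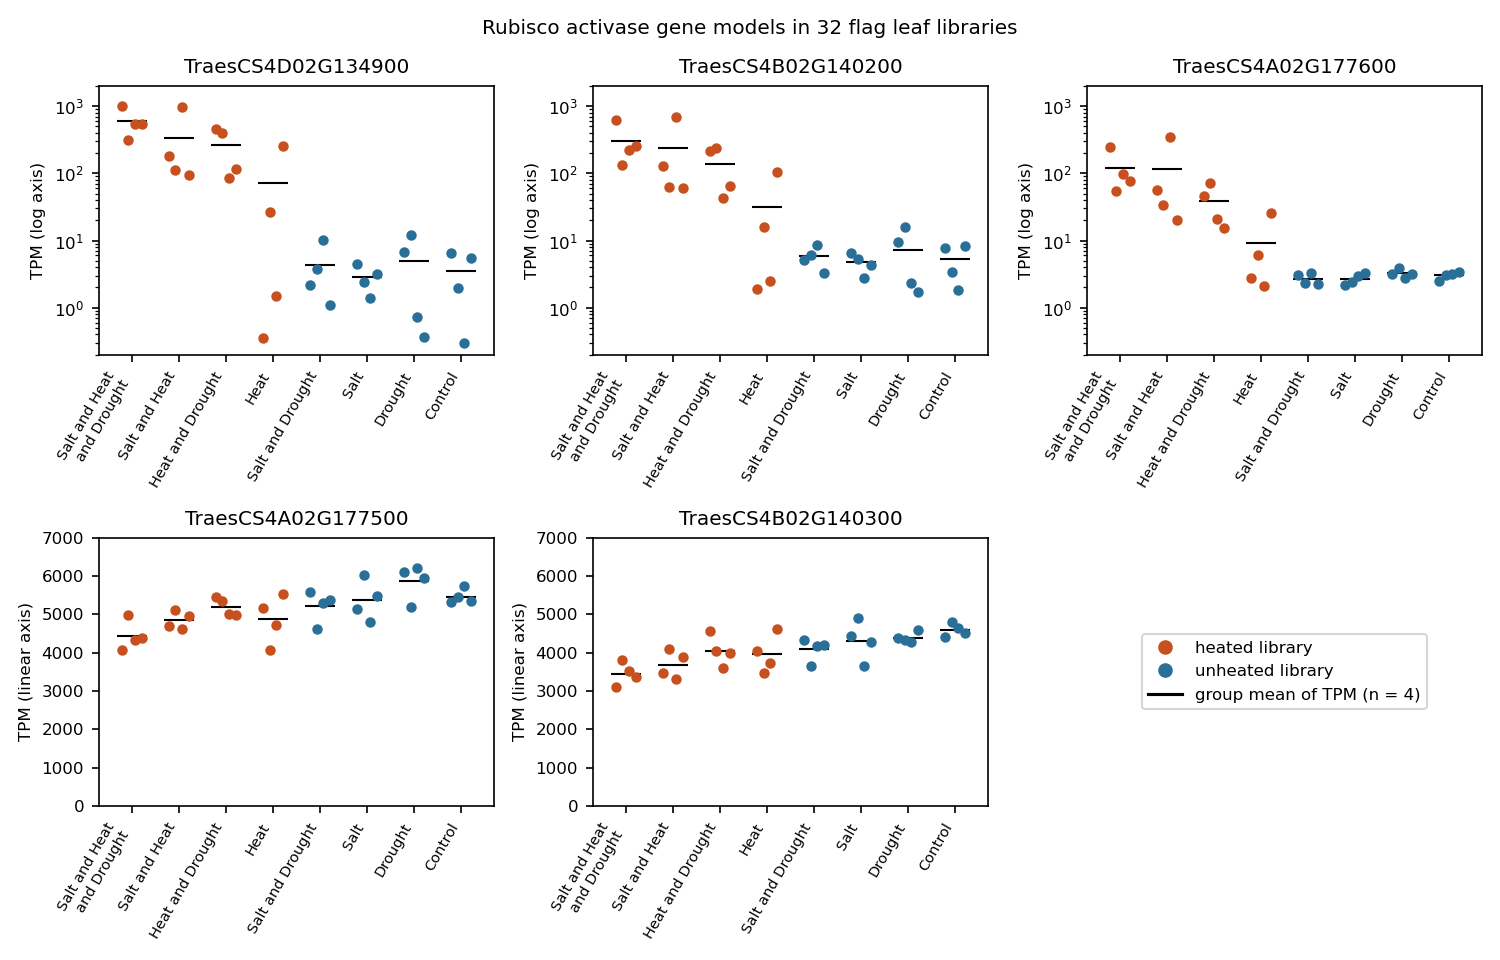
Level of each of the 5 gene models in every library, in TPM, by treatment group. Points are libraries, orange for heated and blue for unheated groups, and black lines are group means (n = 4). The upper 3 panels have a log axis and the lower 2 a linear axis from 0. TraesCS4D02G134900 ran from 0.35 to 1016.48 TPM in heated libraries and from 0.3 to 12.07 TPM in unheated libraries, while TraesCS4A02G177500 stayed between 4060.74 and 6194.71 TPM throughout.

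TraesCS4D02G134900, the only listed gene model on 4D, showed the widest spread of the 5 as a ratio of highest to lowest library. In TPM alone, TraesCS4A02G177500 spanned more. The 4D gene model measured 1016.48, 316.27, 534.3 and 541.19 TPM in the Salt and Heat and Drought libraries, against 6.53, 1.98, 0.3 and 5.41 TPM in the Control libraries. All 4 triple-stress libraries lay far above all 4 Control libraries, and the ratio of the group means, 602.06 ± 295.36 to 3.56 ± 2.91 TPM (SD, n = 4 each), was 169. In the Salt and Heat libraries it measured 182.17, 113.28, 960.28 and 93.65 TPM, and in the Heat and Drought libraries 465.41, 398.9, 84.47 and 116.39 TPM. Every library of both these groups also lay above every Control library, but the Salt and Heat mean of 337.35 TPM rests largely on replicate 3.

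Heat alone gave a split picture for TraesCS4D02G134900. Its 4 libraries measured 0.35, 26.54, 1.5 and 256.08 TPM. Heat replicates 1 and 3 lay within the Control range and Heat replicates 2 and 4 above it, so the Heat and Control groups overlapped. The unheated stress groups stayed low, at 2.17, 3.77, 10.04 and 1.1 TPM in Salt and Drought, 4.4, 2.44, 1.39 and 3.14 TPM in Salt, and 6.83, 12.07, 0.72 and 0.36 TPM in Drought. Each of these 3 groups overlapped with Control for this gene model.

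TraesCS4B02G140200, listed on 4B, had the same order of heated group means. Its level was below that of the 4D gene model in 14 of the 16 heated libraries and above it in 15 of the 16 unheated ones. It measured 621.41, 134.6, 225.09 and 252.2 TPM in the Salt and Heat and Drought libraries, against 7.64, 3.36, 1.82 and 8.18 TPM in the Control libraries. Salt and Heat gave 129.05, 62.81, 694.11 and 59.58 TPM, Heat and Drought 214.87, 237.32, 42.89 and 64.5 TPM, and Heat 1.9, 15.71, 2.48 and 105.6 TPM. Salt and Heat replicate 3 was on top, followed by Salt and Heat and Drought replicate 1, whereas the 4D gene model had these libraries in the opposite order. Heat replicates 1 and 3 stood down among the unheated ones, as for the 4D gene model. The 16 unheated libraries lay between 1.74 and 15.93 TPM.

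TraesCS4A02G177600, listed on 4A, had the lowest mean of the 5 over the 32 libraries. It did not have the lowest unheated median (3.06 TPM, against 2.79 TPM for the 4D gene model). It measured 244.64, 54.12, 96.84 and 78.08 TPM in the Salt and Heat and Drought libraries, against 2.47, 3.07, 3.21 and 3.35 TPM in the Control libraries. Salt and Heat gave 55.82, 33.27, 352.9 and 20.3 TPM, Heat and Drought 45.63, 71.89, 21.16 and 15.11 TPM, and Heat 2.74, 6.11, 2.09 and 25.84 TPM. Its unheated libraries lay in a narrow band from 2.18 to 3.93 TPM, whereas those of the 4D gene model spread from 0.3 to 12.07 TPM.

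The order of the group means was the same for these 3 gene models in the heated groups. Salt and Heat and Drought was highest, then Salt and Heat, Heat and Drought, and Heat, with the 4 unheated groups below. The place of Salt and Heat rests on its replicate 3. By group medians, Salt and Heat stood below Heat and Drought for TraesCS4D02G134900 (147.73 against 257.65 TPM) and TraesCS4B02G140200 (95.93 against 139.69 TPM), but above it for TraesCS4A02G177600 (44.55 against 33.40 TPM). Neighbouring groups in that order overlapped in every case, so no step from one group to the next exceeded the spread between replicates. Over all 16 heated against all 16 unheated libraries, the medians were 219.13 against 2.79 TPM for TraesCS4D02G134900. They were 117.33 against 5.19 TPM for TraesCS4B02G140200 and 39.45 against 3.06 TPM for TraesCS4A02G177600.

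Counts of gene models whose 4 libraries all lay above or all below the 4 Control libraries put this beside the background. In Salt and Heat and Drought, all 5 listed gene models were separated from Control, 3 above and 2 below, where 21.9% of the 60684 gene models tested were separated in either direction. In Salt and Heat the same count was 3 above and 2 below, against a background of 13.0%. In Heat and Drought it was 3 above and 0 below, against 10.4%, and in Heat it was 0 in either direction, against 4.75%. Without heat the count was 0 for the Salt group, against a background of 6.60%, and 0 for the Drought group, against 5.67%. In the Salt and Drought group it was 0 above and 1 below, TraesCS4B02G140300, where 2.76% of gene models lay below Control in all 4 libraries. Since the list was made with the triple-stress contrast known, these shares are a description only.

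The effect of heat was tested from Heat and Drought against Drought and from Salt and Heat against Salt. The triple-stress and Control libraries were not compared, and entered only the filter on low values and the shared estimate of spread. The tests were made with limma on log2(TPM + 1) across 60684 gene models, all 5 listed ones included, with p-values adjusted over all of them by the Benjamini-Hochberg method. On this scale, changes of genes at low levels come out smaller than they are. Averaged over both backgrounds, TraesCS4D02G134900 rose by 5.78 (SE 0.76, limma adjusted p = 7.08e-06). TraesCS4B02G140200 rose by 4.37 (SE 0.61, limma adjusted p = 1.51e-05), and TraesCS4A02G177600 rose by 3.53 (SE 0.44, limma adjusted p = 2.76e-06). The abundant pair did not pass the test, with values of -0.16 for TraesCS4A02G177500 (adjusted p = 0.154) and -0.17 for TraesCS4B02G140300 (adjusted p = 0.137).

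Thus 3 of the 5 passed for averaged heat, all upward, beside 13.5% of all gene models, 7329 upward and 881 downward. The median change of all gene models was 0.19, and the median of the 3 was 4.37. All 3 kept their direction and their call in each of 37 alternative settings, with TraesCS4D02G134900 between 4.69 and 6.35. Leaving out any 1 library of the groups other than Control and Salt and Heat and Drought ended none of these calls. Without all 6 libraries that stand apart TraesCS4D02G134900 stood at 4.99 (limma adjusted p = 1.09e-05).

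Each background gave the same result on its own. In Heat and Drought against Drought, 3 of 5 passed, beside 6.47% of all gene models. All 4 Heat and Drought libraries lay above all 4 Drought libraries for each of these 3, where 20.5% of gene models were separated in either direction. TraesCS4D02G134900 changed by 5.72 (95% interval 3.51 to 7.94, limma adjusted p = 0.00198), TraesCS4B02G140200 by 4.12 and TraesCS4A02G177600 by 2.98. Without the 6 libraries, among them Drought replicates 3 and 4, TraesCS4B02G140200 missed the threshold with 3.06 (limma adjusted p = 0.0507). In Salt and Heat against Salt, again 3 of 5 passed, beside 2.23% of all gene models, and all 4 Salt and Heat libraries lay above all 4 Salt libraries for each of the 3, where 7.22% of gene models were separated in either direction. TraesCS4D02G134900 changed by 5.83 (95% interval 3.61 to 8.04, limma adjusted p = 0.00178), TraesCS4B02G140200 by 4.62 and TraesCS4A02G177600 by 4.07. In a model of the Salt and Heat and Salt groups alone, TraesCS4A02G177600 missed the threshold (limma adjusted p = 0.0583). The heat effect under drought minus the heat effect under salt was called for 0 of 5 by limma, 0 at an unadjusted p under 0.05, beside 0.00165% of all gene models. For TraesCS4D02G134900 that difference was -0.10 with an interval of -3.23 to 3.03, which is wide.

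**Figure D2:**
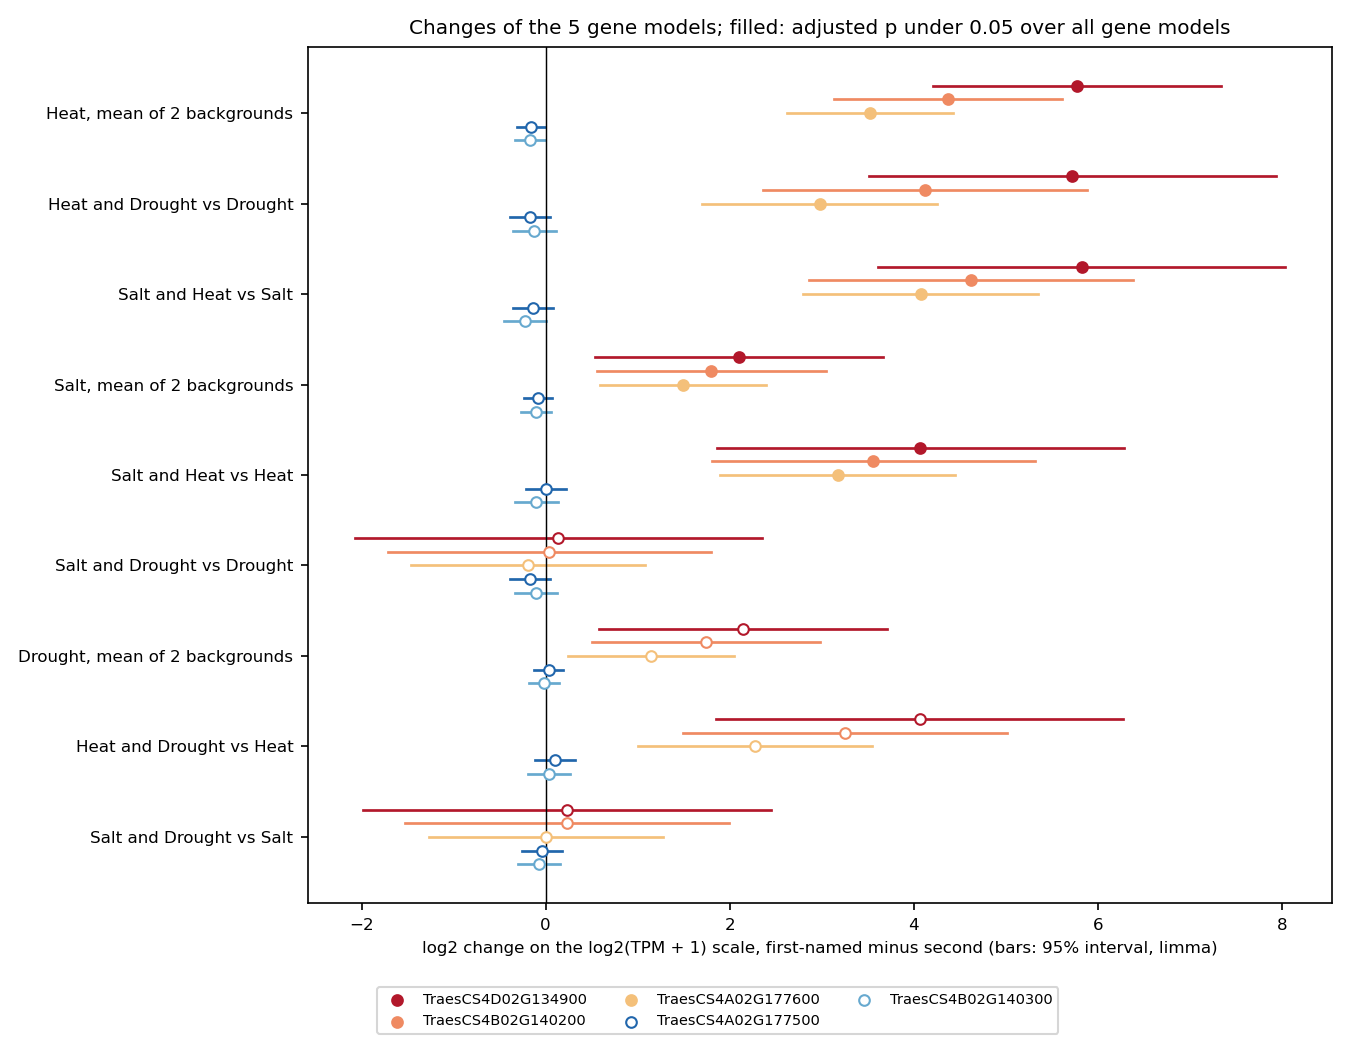
Change of each of the 5 gene models in 9 comparisons that use neither Control nor the triple stress, as the difference of log2(TPM + 1), first-named group minus second. Points are limma estimates, bars are 95% intervals, and filled points have an adjusted p under 0.05 over all gene models tested. The 3 low gene models stand at 2.98 or more in every heat comparison, while the abundant pair runs from -0.22 to 0.10 over all 9.

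The addition of salt to heat was the next comparison. In Salt and Heat against Heat, TraesCS4D02G134900 changed by 4.07 (SE 1.08, limma adjusted p = 0.0199), TraesCS4B02G140200 by 3.56 (SE 0.86, limma adjusted p = 0.0122) and TraesCS4A02G177600 by 3.18 (SE 0.62, limma adjusted p = 0.00333). All 3 passed, beside 11.1% of all gene models, although the 2 groups overlapped for each. The call depends on single libraries. Without Heat replicate 1, Heat replicate 3 or Salt and Heat replicate 3, only TraesCS4A02G177600 passed. Without Salt and Heat replicate 1, 2 of the 3 passed, and TraesCS4D02G134900 missed the threshold with 4.13 (limma adjusted p = 0.0555). Without both Heat replicates 1 and 3, none passed, and TraesCS4D02G134900 stood at 1.31 (limma adjusted p = 0.623). None passed either without the 6 libraries that stand apart, or in a model of the Salt and Heat and Heat groups alone.

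The addition of salt to drought, with no heat, gave a different set of values. In Salt and Drought against Drought, limma called 0 of 5, and 0 had an unadjusted p under 0.05, beside 5.35% of all gene models. TraesCS4D02G134900 stood at 0.14 with a 95% interval of -2.08 to 2.35, which is wide on both sides of 0, and at -1.23 without the 6 libraries that stand apart (limma adjusted p = 0.429). TraesCS4A02G177600 stood at -0.19 with an SE of 0.62, the same SE as in Salt and Heat against Heat, since all groups shared 1 estimate of spread. Yet its unheated libraries lay only between 2.18 and 3.93 TPM. The salt effect under heat minus that under drought was 3.93 for TraesCS4D02G134900 (limma adjusted p = 0.437), 3.52 for TraesCS4B02G140200 (0.339) and 3.37 for TraesCS4A02G177600 (0.134). None of these differences passed, though all 3 had an unadjusted p under 0.05, and 0.0956% of all gene models passed. Without Heat replicate 4, TraesCS4A02G177600 passed with 4.02 (limma adjusted p = 0.0416). Without Heat replicates 1 and 3, the TraesCS4D02G134900 difference was 1.17 (limma adjusted p = 0.659).

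Averaged over both backgrounds, salt gave 2.10 for TraesCS4D02G134900 (SE 0.76, limma adjusted p = 0.0349), 1.80 for TraesCS4B02G140200 (SE 0.61, 0.0248) and 1.49 for TraesCS4A02G177600 (SE 0.44, 0.0132). These 3 of 5 passed where 34.6% of all gene models did, most of them upward, with a median change of 0.27 over all gene models. The call was not stable. TraesCS4D02G134900 and TraesCS4B02G140200 both missed the threshold without Drought replicate 3, Drought replicate 4, Heat replicate 1, Heat replicate 3 or Salt and Heat replicate 3. Without Heat replicate 1 the TraesCS4D02G134900 value was 1.57 (limma adjusted p = 0.111), without Heat replicates 1 and 3 together it was 0.72 (limma adjusted p = 0.473), and without all 6 libraries it was 0.043 (limma adjusted p = 0.976). Its adjusted p ran from 0.00221 to 0.976 over all alternatives. It also missed without Salt and Drought replicate 2, Salt and Drought replicate 3 or Salt and Heat replicate 1. With libraries scaled by the median of ratios, none of the 3 passed, and TraesCS4B02G140300 of the abundant pair passed with -0.47 (limma adjusted p = 0.04).

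Drought added to heat gave no call. This comparison uses the same 4 Heat libraries as the one for salt added to heat. For TraesCS4D02G134900 the change was nearly the same in both, 4.06 for drought and 4.07 for salt, with an SE of 1.08 each. Its calls differ through the adjustment over all gene models, of which 0.694% passed for drought and 11.1% for salt. For TraesCS4B02G140200 the changes were 3.25 and 3.56, and for TraesCS4A02G177600 2.28 and 3.18. Salt and drought under heat were not compared with each other, so the calls alone show no difference between them. In Heat and Drought against Heat, TraesCS4D02G134900 stood at 4.06 (SE 1.08, limma adjusted p = 0.0676), TraesCS4B02G140200 at 3.25 (0.0662) and TraesCS4A02G177600 at 2.28 (0.0742). Limma called 0 of 5, 3 had an unadjusted p under 0.05, and 0.694% of all gene models passed. All 3 passed without Heat replicate 4, with 5.52 for TraesCS4D02G134900 (limma adjusted p = 0.00398). With the number in the sample title as a block, TraesCS4B02G140200 passed with 3.64 (limma adjusted p = 0.0452) and TraesCS4A02G177600 with 2.47 (limma adjusted p = 0.0368). Only TraesCS4B02G140200 passed without Heat and Drought replicate 3, with 3.69 (limma adjusted p = 0.048). Without Salt and Heat replicate 3, which enters only through the shared estimate of spread and the adjustment, 2 passed. Without both Heat replicates 1 and 3, TraesCS4D02G134900 stood at 1.31 (limma adjusted p = 0.702) and none passed.

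In Salt and Drought against Salt, limma called 0 of 5, with 0 at an unadjusted p under 0.05, beside 0.00494% of all gene models, which is 3 gene models. TraesCS4D02G134900 stood at 0.23 with a 95% interval of -1.98 to 2.45. Averaged drought gave 2.15 for TraesCS4D02G134900 (limma adjusted p = 0.33; 0.77 and 0.922 without Heat replicates 1 and 3), 1.74 for TraesCS4B02G140200 (0.325) and 1.14 for TraesCS4A02G177600 (0.346). Limma called 0 of 5 in that average, and 0% of all gene models, while 3 of the 5 and 7748 of all gene models had an unadjusted p under 0.05. The TraesCS4D02G134900 value of 2.15 was close to the 2.10 for averaged salt, where 34.6% of all gene models passed. The drought effect under heat minus that under salt was called for 0 of 5, 3 of them at an unadjusted p under 0.05, beside 0.204% of all gene models. Its value was 3.83 for TraesCS4D02G134900 (limma adjusted p = 0.377), and 1.07 without Heat replicates 1 and 3 (limma adjusted p = 0.788).

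The abundant pair behaved otherwise. TraesCS4A02G177500 measured 4080.19, 4988.29, 4327.02 and 4371.64 TPM in Salt and Heat and Drought, against 5324.47, 5438.15, 5731.24 and 5336.99 TPM in Control. TraesCS4B02G140300 measured 3101.7, 3820.19, 3527.63 and 3353.74 TPM in Salt and Heat and Drought, against 4403.21, 4801.92, 4653.43 and 4501.59 TPM in Control. For both, all 4 triple-stress libraries lay below all 4 Control libraries, at ratios of the means of 0.81 and 0.75. The Salt and Heat libraries lay below Control as well, at 4610.41 to 5117.29 TPM for TraesCS4A02G177500 and 3302.97 to 4100.02 TPM for TraesCS4B02G140300. Separation from Control was also seen without heat, since all 4 Salt and Drought libraries, at 3662.11 to 4334.47 TPM, lay below all 4 Control libraries for TraesCS4B02G140300.

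The group means of the pair formed nearly one order. For TraesCS4A02G177500 it ran from Drought at 5854.72 ± 458.34 TPM through Control, Salt, Salt and Drought, Heat and Drought, Heat, and Salt and Heat to Salt and Heat and Drought at 4441.79 ± 386.23 TPM (SD, n = 4 each). For TraesCS4B02G140300 Control came first, at 4590.04 ± 174.78 TPM, with Drought next and the other groups in the same order. Neighbouring groups overlapped at every step. Over the 16 heated against the 16 unheated libraries the medians were 4973.7 against 5407.19 TPM for TraesCS4A02G177500 and 3772.79 against 4363.02 TPM for TraesCS4B02G140300.

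In none of the 12 tested comparisons did limma call either member of the pair. Averaged heat was the nearest, with both at an unadjusted p under 0.05. The sign of these small values depends on the scaling of the libraries. In the deposited TPM the median change of all gene models was 0.19 for averaged heat. With quantile normalisation, where that median is 0.006, the averaged heat values were 0.21 for TraesCS4A02G177500 and 0.05 for TraesCS4B02G140300. With median-of-ratios scaling, where it is 0.007, they were -0.41 and -0.43, with limma adjusted p-values of 0.0992 and 0.0652. The 3 low gene models, in contrast, stood between 3.30 and 5.84 for averaged heat under each of these scalings. That range also covers the setting with the 100 most abundant gene models, other than the listed pair, left out.

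The sum of the 5 gene models was 9116.63 TPM in the median heated library and 9814.08 TPM in the median unheated library. The 3 low gene models made up 11.54% of that sum in Salt and Heat and Drought (5.42 to 20.77%), against 0.12% in Control (0.05 to 0.17%). Their share was 7.17% in Salt and Heat (1.92 to 20.23%), 4.40% in Heat and Drought (1.70 to 7.01%) and 1.11% in Heat (0.05 to 3.68%). With TraesCS4D02G135000, an abundant neighbour outside the list, added to the sum, the share was 7.51% in Salt and Heat and Drought, against 0.071% in Control. Even in the library with the highest share, Salt and Heat and Drought replicate 1, the pair made up most of the RNA of the 5.

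The 4D, 4B and 4A gene models of the low set moved together but not in a fixed ratio. Leaving aside Heat replicates 1 and 3, TraesCS4D02G134900 had 1.38 to 2.43 times the TPM of TraesCS4B02G140200 in the 14 other heated libraries, against 0.17 to 1.15 times in the 16 unheated libraries. These ranges did not overlap, but over all 16 heated libraries the ratio ran from 0.18 to 2.43 and overlapped the unheated range. How often ratios of other gene models separate in this way was not counted. The 4D gene model made up 57.45% ± 5.50 of the TPM of the 3 in those 14 heated libraries, against 25.85% ± 11.69 in the 16 unheated ones (SD over libraries). In Heat replicates 1 and 3 the 4D share was 7.01 and 24.71%, within the unheated range of 5.63 to 45.64%. Over all 16 heated libraries the 4D share was 52.25% ± 15.44 and the 4A share 15.71% ± 12.33. The 4A share was 11.58% ± 3.45 in the 14 heated libraries, against 29.76% ± 15.67 in the unheated libraries. At unheated levels of a few TPM these shares rest on little signal, and no test was made of them.

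**Figure D3:**
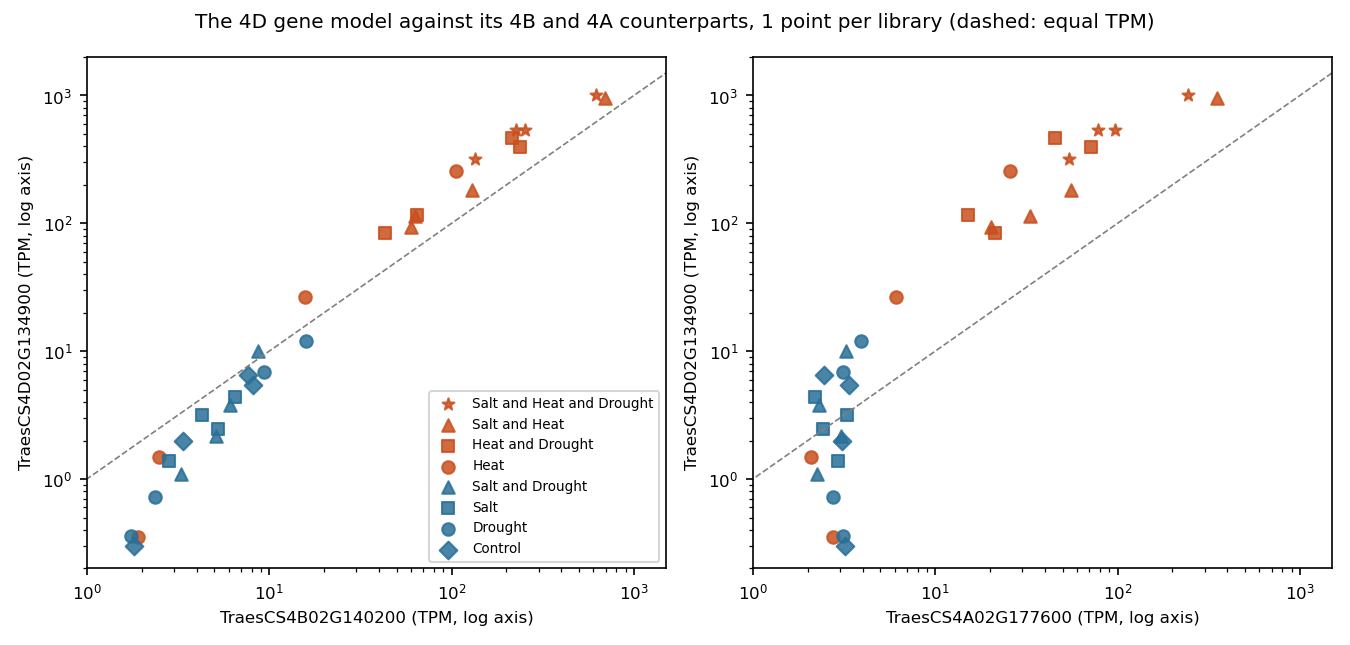
TPM of TraesCS4D02G134900 against that of TraesCS4B02G140200 (left) and TraesCS4A02G177600 (right), both on log axes, with 1 point per library, orange for heated and blue for unheated, and marker shape for the treatment. The dashed line marks equal TPM. The 14 heated libraries other than Heat replicates 1 and 3 lie above the line in both panels, at 1.38 to 2.43 times the 4B level and 2.72 to 10.2 times the 4A level, while 15 of the 16 unheated libraries lie below it in the left panel.

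The ratio within the abundant pair varied less. TraesCS4A02G177500 had 1.17 to 1.40 times the TPM of TraesCS4B02G140300 in the heated libraries, against 1.13 to 1.45 times in the unheated libraries. These ranges overlap. The ratio was 1.25 to 1.40 in Salt and Heat and 1.26 to 1.29 in Salt and Drought, in every library above the 1.13 to 1.23 of Control. Every other stress group overlapped with Control, among them Salt and Heat and Drought at 1.227 to 1.315, where Control reached 1.232. How often ratios of other gene models separate from Control was not counted.

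TraesCS4A02G177600 and TraesCS4D02G134900 have 1 annotated transcript each, TraesCS4B02G140200 and TraesCS4B02G140300 have 2, and TraesCS4A02G177500 has 3. Fitted across 68117 transcripts, averaged heat was called for 4 of 9, all belonging to the 3 low gene models, beside 10.8% of all transcripts. The first transcript of TraesCS4B02G140200 rose by 4.32 (limma adjusted p = 1.6e-05). The second stood at 3.05, but it reached 1 TPM in 13 of the 16 heated libraries, against only 3 of the 16 unheated ones. It therefore passed the filter only through the heated libraries, and its call is no support. Averaged salt was called for 3 of 9, beside 28.3%, and averaged drought for 0 of 9 by limma, 4 of them at an unadjusted p under 0.05, beside 0% of all transcripts. The count for averaged salt was 1 without Drought replicate 3 or 4, Heat replicate 1 or 3, Salt and Drought replicate 2 or 3, or Salt and Heat replicate 3.

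The second transcript of TraesCS4B02G140200 was the minor one in every group. It measured 63.98, 10.48, 17.12 and 16.31 TPM in Salt and Heat and Drought, against 0.72, 0.44, 0.25 and 1.13 TPM in Control. In libraries from the other 6 groups its share of the gene model was 8.46% with heat and 5.96% without, in the backgrounds tested, a difference of 2.50 points (exact permutation p = 0.32, adjusted p = 0.562). Without Salt replicate 2 the difference was 4.40 points (exact permutation p = 0.0412, unadjusted).

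The first transcript of TraesCS4A02G177500 carried most of its RNA, and its share differed between the triple stress and Control. It made up 85.63, 83.99, 83.70 and 88.10% of the gene model in Salt and Heat and Drought, against 74.39, 75.29, 73.73 and 75.56% in Control. The groups did not overlap. The share of the third transcript was 8.41 to 13.10% in Salt and Heat and Drought, against 18.45 to 24.55% in Control. This largely mirrors the first transcript and is not a separate result. How often transcript shares of other gene models separate these 2 groups was not counted. No other group reached a mean share of 85.35% for the first transcript, the next being Heat at 77.20%, but single libraries of Salt, Drought, Heat, and Salt and Heat reached 81.36 to 84.21%, as the plot of transcript shares shows. As these groups are those known when the list was made, no test is given.

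Among the 6 other groups, shares were tested by exact permutation of the libraries within backgrounds, with 4900 arrangements, two-sided, so that the smallest possible p was 0.000408. With salt, the third transcript of TraesCS4A02G177500 made up 18.50% against 14.40% without, a difference of 4.10 points (exact permutation p = 0.0245, adjusted p = 0.184 over 45 shares and stresses). The unadjusted p was 0.0514 without Drought replicate 2, 0.0506 without Heat replicate 2, 0.0624 without Salt and Drought replicate 1 and 0.0705 without Heat replicates 1 and 3. With drought, the first transcript made up 71.04% against 75.53% without (exact permutation p = 0.0604, adjusted p = 0.242). Its unadjusted p was 0.0363 without Heat and Drought replicate 1, 0.0286 without Salt replicate 2, 0.0416 without Salt replicate 3 and 0.0445 without Salt and Drought replicate 2. No transcript share passed after adjustment. In the same family, the shares of the 3 low gene models in the sum of the 5 passed for heat (exact permutation p = 0.000408, adjusted p = 0.00459 each). They were 3.07% with heat against 0.04% without for TraesCS4D02G134900, 1.92 against 0.06% for TraesCS4B02G140200 and 0.79 against 0.03% for TraesCS4A02G177600. Without Salt replicate 1 the unadjusted exact permutation p was 0.0249 for TraesCS4A02G177600, 0.00898 for TraesCS4B02G140200 and 0.00408 for TraesCS4D02G134900. For TraesCS4A02G177600 it was 0.0249 without Salt replicate 2 as well. No share passed for salt or drought. For TraesCS4B02G140300 the first transcript made up 97.20% with heat and 96.59% without (exact permutation p = 0.651, adjusted p = 0.751). With heat minus without, the share of its second transcript stood at -0.61 points, and at 0.43 points when Drought replicate 4 was left out.

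**Figure D4:**
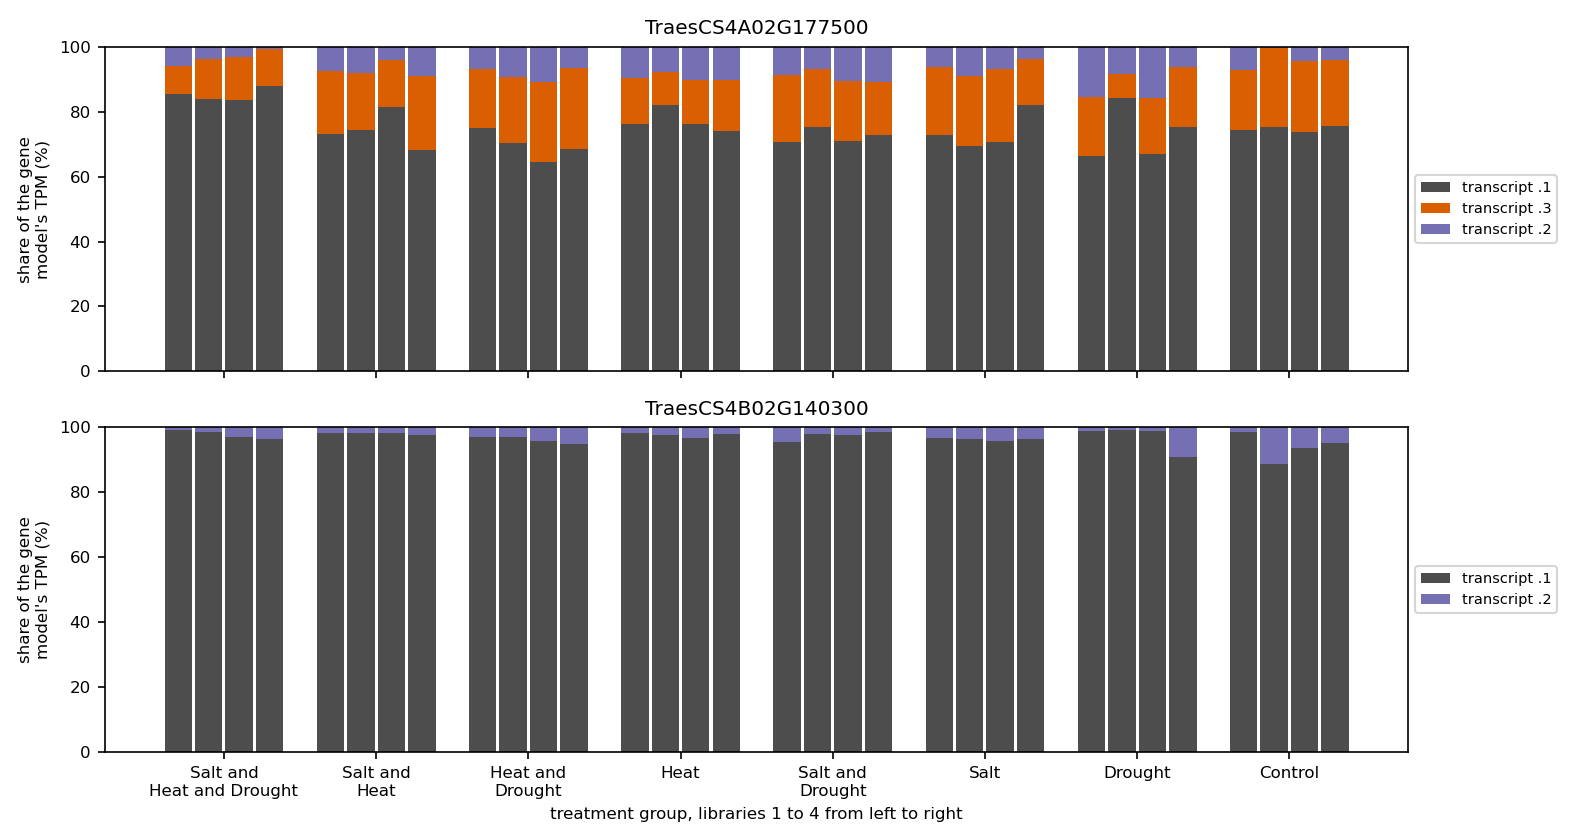
Share of each annotated transcript in the TPM of TraesCS4A02G177500 (top) and TraesCS4B02G140300 (bottom), in percent, 1 bar per library, grouped by treatment. In the upper panel the first transcript (grey) reaches 83.70 to 88.10% in the 4 Salt and Heat and Drought libraries, against 73.73 to 75.56% in the 4 Control libraries. In the lower panel the first transcript dominates every library.

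The libraries differed in how much of all TPM went to their most abundant genes. The 100 gene models most abundant on average took 13.59 to 36.06% of the TPM, and 44106 to 53532 gene models reached 1 TPM. In the plot of this share against the summed level of the 3 low gene models, Heat replicates 1 and 3 stand at 36.06 and 32.24% with sums of 4.99 and 6.07 TPM. Heat replicates 2 and 4 stand at 21.68 and 20.83% with sums of 48.36 and 387.52 TPM. The highest sum, 2007.29 TPM in Salt and Heat replicate 3, goes with the lowest share, 13.59%. Control replicate 3 and Drought replicates 3 and 4, where TraesCS4D02G134900 was at 0.3, 0.72 and 0.36 TPM, have shares of 33.53, 33.28 and 31.43%. The part of these shares in the levels of the 3 gene models was not tested. Averaged heat was called for all 3 with the 100 most abundant gene models, other than the listed pair, left out.

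**Figure D5:**
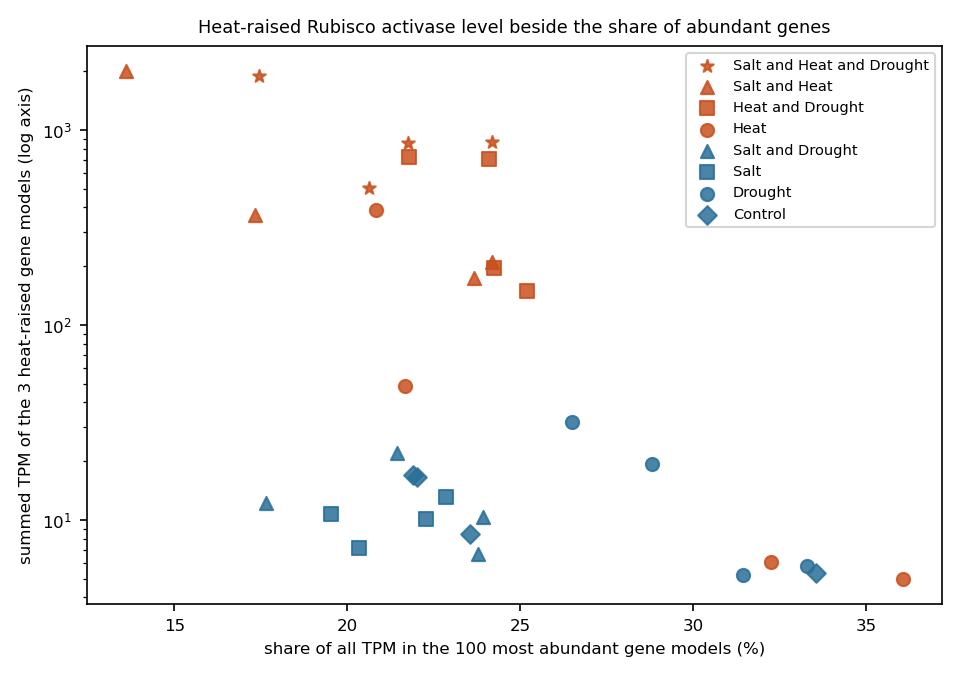
Summed TPM of the 3 low gene models (log axis) against the share of all TPM held by the 100 most abundant gene models (%), 1 point per library, orange for heated and blue for unheated, marker shape for the treatment. Heat replicates 1 and 3 lie at the lower right with 4.99 and 6.07 TPM, beside unheated libraries of similar share, and Salt and Heat replicate 3 lies at the upper left with 2007.29 TPM.

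The neighbourhood of the loci was followed in the order of the identifiers. Of the 12 high confidence gene models within 2 places of the listed ones, 10 never reached 1 TPM in any library. TraesCS4A02G177800 lay between 2.88 and 8.9 TPM. TraesCS4D02G135000, which follows TraesCS4D02G134900 directly and is not in the list, had the highest mean of all gene models, 6109.09 TPM. It had a median of 5553.35 TPM in heated libraries (4496.39 to 6852.86), against 6516.95 TPM in unheated libraries (5498.77 to 7339.16). For each library, the 25 expressed high confidence gene models on each side of a locus were also compared with the other libraries of its group. The median log2 ratio of these neighbours lay between -0.67 and 0.44 on 4A, -0.63 and 0.45 on 4B, and -0.65 and 0.39 on 4D, where that of all gene models tested lay between -0.43 and 0.27. After subtraction of the median of all gene models in the same library, the ranges were -0.24 to 0.17 on 4A, -0.22 to 0.19 on 4B, and -0.22 to 0.16 on 4D.

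Likeness over the 32 libraries was measured by Pearson's r of log2(TPM + 1), as a description, since the libraries share treatments and scaling. Within the list, TraesCS4D02G134900 and TraesCS4B02G140200 had r = 0.993, TraesCS4A02G177600 and TraesCS4B02G140200 had r = 0.966, and the abundant pair had r = 0.877. Between the sets r lay between -0.615 and -0.525. Outside the list, the gene models most like TraesCS4D02G134900 were TraesCS5B02G211200 (r = 0.935), TraesCS7D02G440200 (0.931), TraesCS5D02G266000 (0.931), TraesCS5A02G481400 (0.929) and TraesCS5A02G257700 (0.929). All 5 had a higher mean in heated than in unheated libraries, for example 93.03 against 0.87 TPM for TraesCS5D02G266000.

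For TraesCS4B02G140200 the most alike were TraesCS5A02G545700 (r = 0.936), TraesCS7D02G440200 (0.933) and TraesCS4B02G225400 (0.930). For TraesCS4A02G177600 they were TraesCS3A02G352300 (0.933), TraesCS7D02G440200 (0.925) and TraesCS5A02G257700 (0.925). TraesCS7D02G440200 thus appeared for each of the 3, which are themselves alike (r of 0.948 to 0.993). By rank correlation (Spearman's rho) it was among the most alike for none of them. For both members of the abundant pair the most alike was TraesCS4D02G135000, with r = 0.855 for TraesCS4A02G177500 and 0.933 for TraesCS4B02G140300. Next came TraesCS5D02G518800 (0.791) and TraesCS2A02G237200 (0.773) for TraesCS4A02G177500, and TraesCS6A02G272300 (0.856) and TraesCS6B02G299800 (0.854) for TraesCS4B02G140300. By Spearman's rho, 11 of the likenesses named for the listed gene models left the most alike and 6 stayed. Of those named for TraesCS4D02G134900, only TraesCS5B02G211200 stayed. The functions of these gene models are not given by the files.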

How the data were processed

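RNA of wheat flag leaves was sequenced from 8 groups of 4 libraries, placed by the source name in the labels. The authors used STAR for alignment to the IWGSC 1.1 wheat genome and RSEM 1.3.3 for TPM, per the series text. CASAVA and Trimmomatic appear besides in the submitters' processing notes. The deposited values are TPM per transcript, and each library summed to 1000000 within rounding. TPM hold no counts, so no count model was used and the depth is unknown. Every column belonged to 1 sample, and 0 were left over. A reference table of 155467 genes of a later wheat assembly matched 0 identifiers, so no gene names, pathway lists or sequences are given.

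From these values, transcripts were summed per gene model. The test took features that reached 1 TPM in 4 or more libraries (60684 gene models, 68117 transcripts), and all 5 listed gene models and 9 transcripts passed. Values were analysed as log2(TPM + 1) with limma 3.58.1 in R 4.3.3 (trend in eBayes), 1 model with 8 group means and 24 residual degrees of freedom, two-sided, Benjamini-Hochberg adjustment over all features tested, threshold 0.05. There were 12 contrasts among the 6 groups other than Control and Salt and Heat and Drought, which enter only the filter and the estimate of spread. The fit was tested on simulated data. Shares were tested by exact permutation. The p-values measure the spread between libraries. In limma, 1 estimate of spread per feature served all 8 groups. In TPM, heated libraries of the 3 low gene models spread more than unheated ones (2.09 to 352.9 against 2.18 to 3.93 TPM for TraesCS4A02G177600). On the log2 scale of the tests this did not hold for every group. TraesCS4D02G134900 ran from 0.36 to 12.07 TPM in Drought, and from 316.27 to 1016.48 TPM in Salt and Heat and Drought. Where heated groups do spread more on that scale, intervals between unheated groups can be too wide, and p-values between heated groups too small.

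The members, groupings and comparisons were chosen with earlier results of these data known. Named besides the members are the high confidence neighbours within 2 places, and the 5 gene models most like TraesCS4D02G134900 (3 for each other member) by Pearson's r. Settings were varied in the pseudocount, the filter, the scaling (median of ratios, quantile normalisation, omission of the 100 most abundant gene models other than the listed pair), blocks by replicate or title number, models of the compared groups alone, a 2-fold minimum, and the omission of single libraries or of Heat replicates 1 and 3. Single libraries were left out only from the 6 groups in the tests. The omission of 6 libraries (Heat replicates 1 and 3, Drought replicates 3 and 4, Control replicate 3 and Salt replicate 3) was added after seeing the data.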

Additional observations from a re-analysis of the deposited data

Results flagged for a closer look

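Of 40 sets of 4 libraries, 5 gene models in each of 8 groups, 6 held a library that stood far from the other 3 by Dixon's 95% criterion. For values that follow a normal distribution, chance alone gives about 1 in 20 sets. The criterion was applied to TPM without logs, and each of the 6 was the highest of its set. It was not applied on the log scale of the tests, so the count was not set against chance there. The 6 come from 2 libraries and from gene models that share libraries and reads, so they are not independent of each other.

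Salt and Heat replicate 3 was high for all 3 low gene models. TraesCS4D02G134900 stood at 960.28 TPM there, against 93.65 to 182.17 TPM in the other 3 libraries of the group. TraesCS4B02G140200 stood at 694.11 TPM, against 59.58 to 129.05 TPM, and TraesCS4A02G177600 at 352.9 TPM, against 20.3 to 55.82 TPM. Heat replicate 4 was high for the same 3, with 256.08 TPM against 0.35 to 26.54 TPM for TraesCS4D02G134900, 105.6 against 1.9 to 15.71 TPM for TraesCS4B02G140200, and 25.84 against 2.09 to 6.11 TPM for TraesCS4A02G177600. These libraries had 13.59 and 20.83% of their TPM in the 100 most abundant gene models; the part of that in the levels was not tested.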

How the results depend on the processing

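For averaged heat, Heat and Drought against Drought, and Salt and Heat against Salt, the directions of the 3 low gene models held under every setting and library omission run, and the calls too, except that 2 of 3 passed for Salt and Heat against Salt in a model of those groups alone, and 2 of 3 for Heat and Drought against Drought without the 6 libraries that stand apart. For averaged salt, 3 members were called as analysed. The number was 1 without a filter, 1 with median-of-ratios scaling, 1 with the compared groups alone, 0 with quantile normalisation, 0 without Heat replicates 1 and 3, 0 without the 6 libraries, and 1 to 3 with single libraries left out. Of transcripts, 3 were called for averaged salt. The number was 1 without a filter, 1 with median-of-ratios scaling, 1 with quantile normalisation, 1 without the 100 most abundant gene models (the listed pair kept), 0 with the compared groups alone, 0 without Heat replicates 1 and 3, 0 without the 6 libraries, and 1 to 4 with single libraries left out. Salt and Heat against Heat had 3 calls, 0 with the compared groups alone, 0 without Heat replicates 1 and 3, 0 without the 6 libraries, and 1 to 3 with single libraries left out. Heat and Drought against Heat had 0 calls, 2 with the title number as a block, and 0 to 3 with single libraries left out. The salt effect under heat minus that under drought had 0 calls, and 0 to 1 with single libraries left out. The small values of the abundant pair changed sign with the setting. With quantile normalisation TraesCS4A02G177500 stood at 0.21 for heat and 0.34 for salt, and TraesCS4B02G140300 at 0.048 for heat, 0.30 for salt and 0.065 for drought. For averaged drought TraesCS4A02G177500 stood at -0.14 with median-of-ratios scaling. It stood at -0.0038 without the 100 most abundant gene models other than the listed pair, and between -0.01 and 0.064 with single libraries left out. TraesCS4B02G140300 stood at 0.010 for averaged drought with the title number as a block and between -0.057 and 0.020 with single libraries left out. The heat difference in the share of its second transcript lay between -0.98 and 0.43 points with single libraries left out. The cause of these changes was not tested. With the replicate number as a block, the calls were 3 for averaged heat, 3 for averaged salt and 0 for averaged drought, as without it. Deviations of same-numbered libraries from their group means had r between -0.292 and 0.293 over 112 pairs, 27 of them over 0.1. By title number r lay between -0.467 and 0.47 over 56 pairs, 14 of them over 0.1. The medians were 0.005 by replicate number and -0.006 by title number. Differently numbered libraries were not compared, so whether either number pairs the libraries was not tested. Median-of-ratios scaling moved 14 of 40 group levels by more than 1 SD, with size factors of 0.67 to 1.274. Unknown depth limits the unheated levels of the 3 low gene models most.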
